A study of Homo sapiens with 4 samples.

Results

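The genes of the enzymes that write, read and remove methyl marks on cytosine were examined in a genome-wide survey of modified cytosine in FaDu cells, an epithelial cell line that comes from a hypopharyngeal squamous carcinoma. The 9 genes were TET1, TET2, TET3, DNMT1, DNMT3A, DNMT3B, UHRF1, TDG and CXXC4, chosen by name out of 19881 protein-coding genes. The study made 4 libraries, 1 per condition, from cells with a scrambled control or with TET1 knocked down (labelled TET1-si), each kept under normoxia or hypoxia. Hypoxia was 1% oxygen, which lasted 18 h for control cells and 19 h for knockdown cells. In the methods the knockdown was made with a short hairpin RNA in a lentiviral vector. The deposited table gives 956365 windows of 500 bp on the human genome build hg19 with 4 value columns. Their headings match no condition, so their values were not used, no condition was compared with another and the knockdown of TET1 could not be checked. What could be read was which windows the table lists. A window was counted for a gene when its midpoint lay between 3000 bp upstream of the start site and the end of the canonical transcript, which gave 1485 windows, of which the table lists 605. A listed window is not tied to a condition, and a window left out may still have had reads. The mark itself is not settled, since the sample titles name hydroxymethylated DNA, the extraction label names an antibody against 5-methylcytidine and the methods describe chemical labelling of 5-hydroxymethylcytosine.

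DNA methylation in mammals is placed on cytosines followed by guanine, called CpG sites. DNMT3A and DNMT3B methylate DNA that carries no mark. DNMT1 copies the pattern to the daughter strand after replication, and UHRF1 brings it to DNA that is methylated on a single strand. The TET enzymes oxidise 5-methylcytosine to 5-hydroxymethylcytosine and further to forms that the glycosylase TDG cuts out for repair. CXXC4 is a zinc finger protein that binds unmethylated CpG, and its gene lies on the other strand upstream of TET2, whose protein lacks such a finger. CpG islands, stretches dense in CpG sites at many start sites, are mostly kept free of methylation.

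None of the 9 genes had its start site in a listed window. Over all protein-coding genes 26.7% of start windows were listed, and 20.2% of the start windows with 30 or more CpG sites. Among the members 8 of the 9 start windows had 30 or more CpG sites, from 32 in CXXC4 to 79 in TET3 and DNMT3A, and the start window of TET2 had 15. At 9 genes a count of 0 against these shares is a description and was not tested. At DNMT3A, 4 windows in a row over chr2:25563501-25565500 had 66 to 79 CpG sites each and were all left out. At TET1 and TET3 the next window downstream, inside intron 1, was listed, with 45 and 51 CpG sites. The next window was listed in these 2 genes of the 9, against 29.8% of all genes, and 13.8% of all genes had the next window listed while the start window was not. Stretches of intron 1 of the 3 genes are shown because they set dense windows that the table lists beside one that it does not. They are from hg19, 5′ to 3′ on the strand of the gene, with each CpG in capitals. The TET1 stretch, chr10:70320601-70320900 on the plus strand, holds 26 of the 45 CpG sites of a listed window. The TET3 stretch, chr2:74212601-74212900 on the plus strand, holds 27 of the 51 sites of a listed window. The DNMT3A stretch, chr2:25563601-25563900 on the minus strand, holds 43 of the 72 sites of a window that was not listed.
TET1 intron 1, listed: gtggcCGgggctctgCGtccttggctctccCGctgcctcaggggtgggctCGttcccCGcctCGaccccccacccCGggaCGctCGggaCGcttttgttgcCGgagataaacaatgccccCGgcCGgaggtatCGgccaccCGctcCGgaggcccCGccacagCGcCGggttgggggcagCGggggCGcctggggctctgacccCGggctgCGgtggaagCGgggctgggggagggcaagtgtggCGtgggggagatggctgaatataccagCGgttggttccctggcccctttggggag
TET3 intron 1, listed: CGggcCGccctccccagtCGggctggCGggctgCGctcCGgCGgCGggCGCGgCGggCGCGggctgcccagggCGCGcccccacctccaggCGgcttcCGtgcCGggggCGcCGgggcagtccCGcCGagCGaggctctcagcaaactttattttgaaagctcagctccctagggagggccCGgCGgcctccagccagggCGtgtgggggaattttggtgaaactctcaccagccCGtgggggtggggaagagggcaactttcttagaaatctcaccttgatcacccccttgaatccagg
DNMT3A intron 1, not listed: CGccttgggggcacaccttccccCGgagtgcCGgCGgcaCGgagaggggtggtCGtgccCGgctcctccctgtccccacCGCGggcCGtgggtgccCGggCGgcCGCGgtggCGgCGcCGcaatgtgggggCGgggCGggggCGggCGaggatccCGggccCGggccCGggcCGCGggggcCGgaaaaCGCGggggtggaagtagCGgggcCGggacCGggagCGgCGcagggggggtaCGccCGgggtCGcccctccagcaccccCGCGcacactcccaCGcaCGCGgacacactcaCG
The unlisted stretch, of DNMT3A, has the most CpG sites of the 3.

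**Figure D1:**
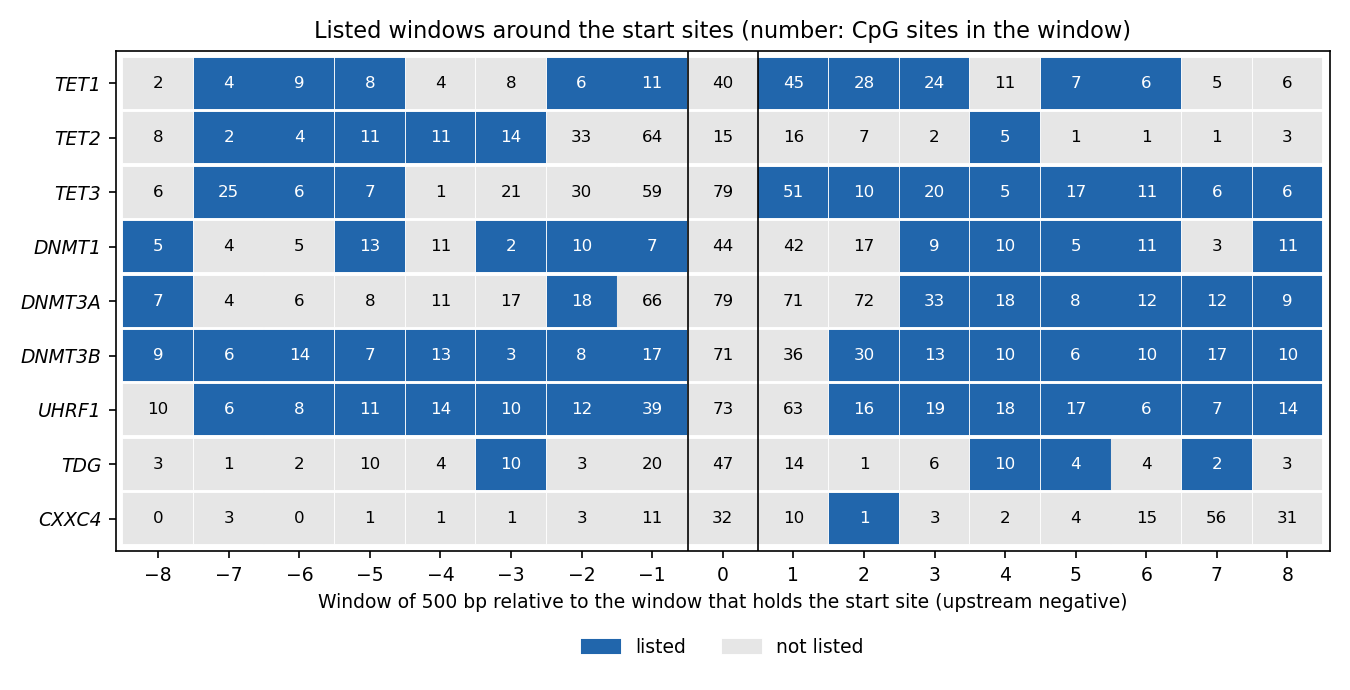
Each row is a gene and each box a window of 500 bp, placed by its distance in windows from the window that holds the start site of the canonical transcript (0), with upstream negative. Blue boxes are listed in the table, grey boxes are not, and the number is the count of CpG sites: column 0 is grey in all 9 rows, with 15 to 79 CpG sites.

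Other annotated starts added 1 listed window. The protein-coding transcripts of the 9 genes start in 24 different windows, and 1 of these was listed, against 34.3% over all protein-coding genes. With 30 or more CpG sites it was 1 of 16, against 22.7%. The listed window was that of UHRF1-205, chr19:4909001-4909500, with 39 CpG sites, just upstream of the canonical start. A second CpG-dense start inside DNMT3A, in the window chr2:25475001-25475500 with 44 sites, was not listed. Neither was the start of TET3-201, in the window chr2:74229501-74230000 with 60 sites, although the 14 windows that follow it were all listed.

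TET1 is the gene whose response to hypoxia the study examined, and its upstream region was tested there with reporter constructs and chromatin immunoprecipitation. The edge between a listed window and the unlisted start window falls inside this region, after chr10:70320000. This edge is a border of the fixed 500 bp windows and not a measured limit of the mark. The 250 bases before the start site are shown because they span the edge. They run over chr10:70319844-70320093 on the plus strand, with 157 bases and 5 CpG sites in the listed window and 93 bases in the unlisted one.
TET1 upstream of the start: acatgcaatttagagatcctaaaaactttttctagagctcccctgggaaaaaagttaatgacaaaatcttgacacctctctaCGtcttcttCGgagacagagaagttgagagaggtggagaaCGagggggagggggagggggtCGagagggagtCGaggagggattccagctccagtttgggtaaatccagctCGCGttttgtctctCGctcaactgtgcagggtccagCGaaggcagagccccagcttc
The stretch is less dense than the islands above, with 9 CpG sites in 250 bases. The stretch from chr10:70319959-70320025, which is present in the 175 bp reporter insert and missing from the 108 bp insert, has 42 bases in the listed window and 25 in the unlisted one. Thus the fixed window border divides the stretch between a listed and an unlisted window, and where the mark lies within it cannot be read. The primers of the immunoprecipitation assay lie in the unlisted start window, and the product runs over chr10:70320003-70320108 with 4 CpG sites.
TET1 forward primer: agggattccagctccagttt
TET1 reverse primer: cagacctcagggagtgaagc
The target of the hairpin RNA lies far from there, in exon 12 at chr10:70451833-70451853, 265 bp after the coding end, in a window with 5 CpG sites that was not listed.
TET1 hairpin target: ccttgatagaatcactcagtt
The target itself holds 0 CpG sites.

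The core sequence bound by the hypoxia-inducible factors, ACGTG or GCGTG, was searched on both strands from 250 bases before to 50 after the start site. Overlapping matches were counted, so that CACGTG counts on each strand. It occurred in 6 of the 9 members and in 56.6% of all promoters. TET3 and TDG had 5 matches each, DNMT1 had 3, UHRF1 had 2, and TET2 and CXXC4 had 1 each. TET1, DNMT3A and DNMT3B had 0 in this window, which says nothing of the rest of the gene or of binding. For TET1 the product of the immunoprecipitation primers lies inside the window searched. The paper reports direct binding of a hypoxia-inducible factor to the proximal promoter of this gene. It also reports that the longer reporter inserts responded to hypoxia and to this factor, while the shortest insert did not.

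The upstream regions differed more between the genes than the start windows. At least 1 of the 6 windows in the 3000 bp upstream was listed in 8 of the 9 genes, against 74.6% of all protein-coding genes. DNMT3B and UHRF1 had all 6 windows listed, which was seen in 7.07% of all genes. TET1, TET2 and DNMT1 had 4 listed, TET3 had 2, DNMT3A and TDG had 1 each, and CXXC4 had 0. Together 28 of 54 upstream windows were listed, or 51.9%, against 38.4% over all genes. This pooled share leans on DNMT3B and UHRF1, with 6 of 6 each, and does not hold for each gene. In DNMT1 and CXXC4 the start window is itself among the 6, because its midpoint lies upstream of the start site. The 3 TET genes also differed in where the listed windows lay. In TET1 both windows next to the start window upstream were listed, with 6 and 11 CpG sites. In TET2 and TET3 the pair next to the start window was not listed, with 33 and 64 sites in TET2 and 30 and 59 sites in TET3.

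Over the whole gene regions, 40.7% of the windows were listed (95% Wilson interval 38.3 to 43.3). The share was 17.6% over all autosomal windows and 23.2% over autosomal windows in the same region of any protein-coding gene. Listing varies with CpG number, so a predicted share was taken from autosomal windows of equal CpG number and similar GC content. The prediction for the 9 genes was 27.9%, and the ratio of listed to predicted windows was 1.46. The ratio was above 1 in 6 of the 9 genes, against 57.2% of the autosomal genes with 20 or more windows, and its median was 1.35 in the members and 1.13 in those genes. Intervals here cover counting error only and take each window as independent of its neighbours, which it is not.

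The TET genes differed widely from each other. TET3 had 140 of 253 windows listed, or 55.3% (49.2 to 61.3), and its ratio of 1.94 was the highest of the 9 genes, above that of 86.8% of autosomal genes. TET1 had 82 of 274 listed, or 29.9% (24.8 to 35.6), with a ratio of 1.35. TET2 had 19 of 272 listed, or 6.99% (4.52 to 10.7), with a ratio of 0.758. The intervals of the 3 TET genes do not overlap, but they take neighbouring windows as independent, so this is a description and not a test. TET2 is also the poorest in CpG, with a mean of 3.40 sites per window against 6.91 in TET1 and 7.79 in TET3, and it lies on chromosome 4, where the ratio over all windows was 0.537. With the prediction made from CpG number alone its ratio was 0.578 over all autosomes and 1.21 over its own chromosome. CXXC4, on the same chromosome, had 2 of 59 windows listed, or 3.39% (0.935 to 11.5), and the lowest ratio of the 9, at 0.375.

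The methyltransferase genes and UHRF1 all had a higher listed share than TET1. Against the prediction DNMT3A was below TET1, with a ratio of 1.06 against 1.35. UHRF1 had the highest share, with 97 of 111 windows listed, or 87.4% (79.9 to 92.3), and a ratio of 1.85. DNMT1 had 85 of 129 listed, or 65.9% (57.4 to 73.5), with a ratio of 1.63. DNMT3B had 65 of 100 listed, or 65.0% (55.3 to 73.6), with a ratio of 1.81. The shares of DNMT1 and DNMT3B differ by less than their intervals. DNMT3A had 107 of 235 listed, or 45.5% (39.3 to 51.9), close to its predicted 42.9%. Its ratio was 1.06, and depended on the prediction. It was 0.956 from windows inside genes, 1.31 from CpG number alone, and 1.92 from CpG number on its own chromosome, where the ratio over all windows was 0.673. TDG had 8 of 52 listed, or 15.4% (8.01 to 27.5), with a ratio of 0.836. Its interval overlaps those of TET1, TET2 and CXXC4.

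The listed share around a gene was low for CXXC4 and TET2 and high for UHRF1, but did not follow the share of the gene throughout. Around TET3 it was lower than around TET1, and around TDG it was higher than around DNMT3A. In the 500 kb on each side, 1.75% of the windows were listed around CXXC4, 4.55% around TET2, 18.1% around DNMT3A, 45.2% around DNMT1, 53.15% around DNMT3B and 58.95% around UHRF1. TET3, UHRF1 and DNMT3A stood furthest above their surroundings in percentage points. TET3 had 55.3% against 25.05%, UHRF1 had 87.4% against 58.95% and DNMT3A had 45.5% against 18.1%. The order changed when the ratio of listed to predicted windows was divided by that of the surroundings. The result was 1.76 in TET3, 1.66 in CXXC4, with 2 listed windows, 1.60 in TET2, 1.49 in DNMT3A and 1.46 in UHRF1. TET1 did not stand apart, with 29.9% against 28.8%. TDG was the 1 gene below its surroundings, with 15.4% against 24.65%. The part of the chromosome region, or of DNA copy number, in the share of each gene was not tested.

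The longest stretches of 1 kind lay in UHRF1 and TET2. In UHRF1, 49 windows in a row were listed, from chr19:4910501-4935000, a stretch of 24.5 kb from exon 2 to exon 5, and all 97 listed windows of the gene fall into 7 runs. Its 18 exons touched a listed window in 16 cases, and the exceptions were exons 1 and 11. Exons that lie in the same window, such as 6 and 7, each count, and no share over the exons of all genes was taken. In TET2, 89 windows in a row were left out, from chr4:106120001-106164500, a stretch of 44.5 kb that holds exon 3, the large exon that opens the coding sequence, and exons 4 and 5. Exon 6 was the 1 exon of TET2 that touched a listed window, with 13 CpG sites. Listed windows of TET2 lay towards its start. With the transcript divided into 3 equal parts, 11 windows were listed in the 5′ part and 2 in each of the others, for ratios of 1.29, 0.257 and 0.272.

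**Figure D2:**
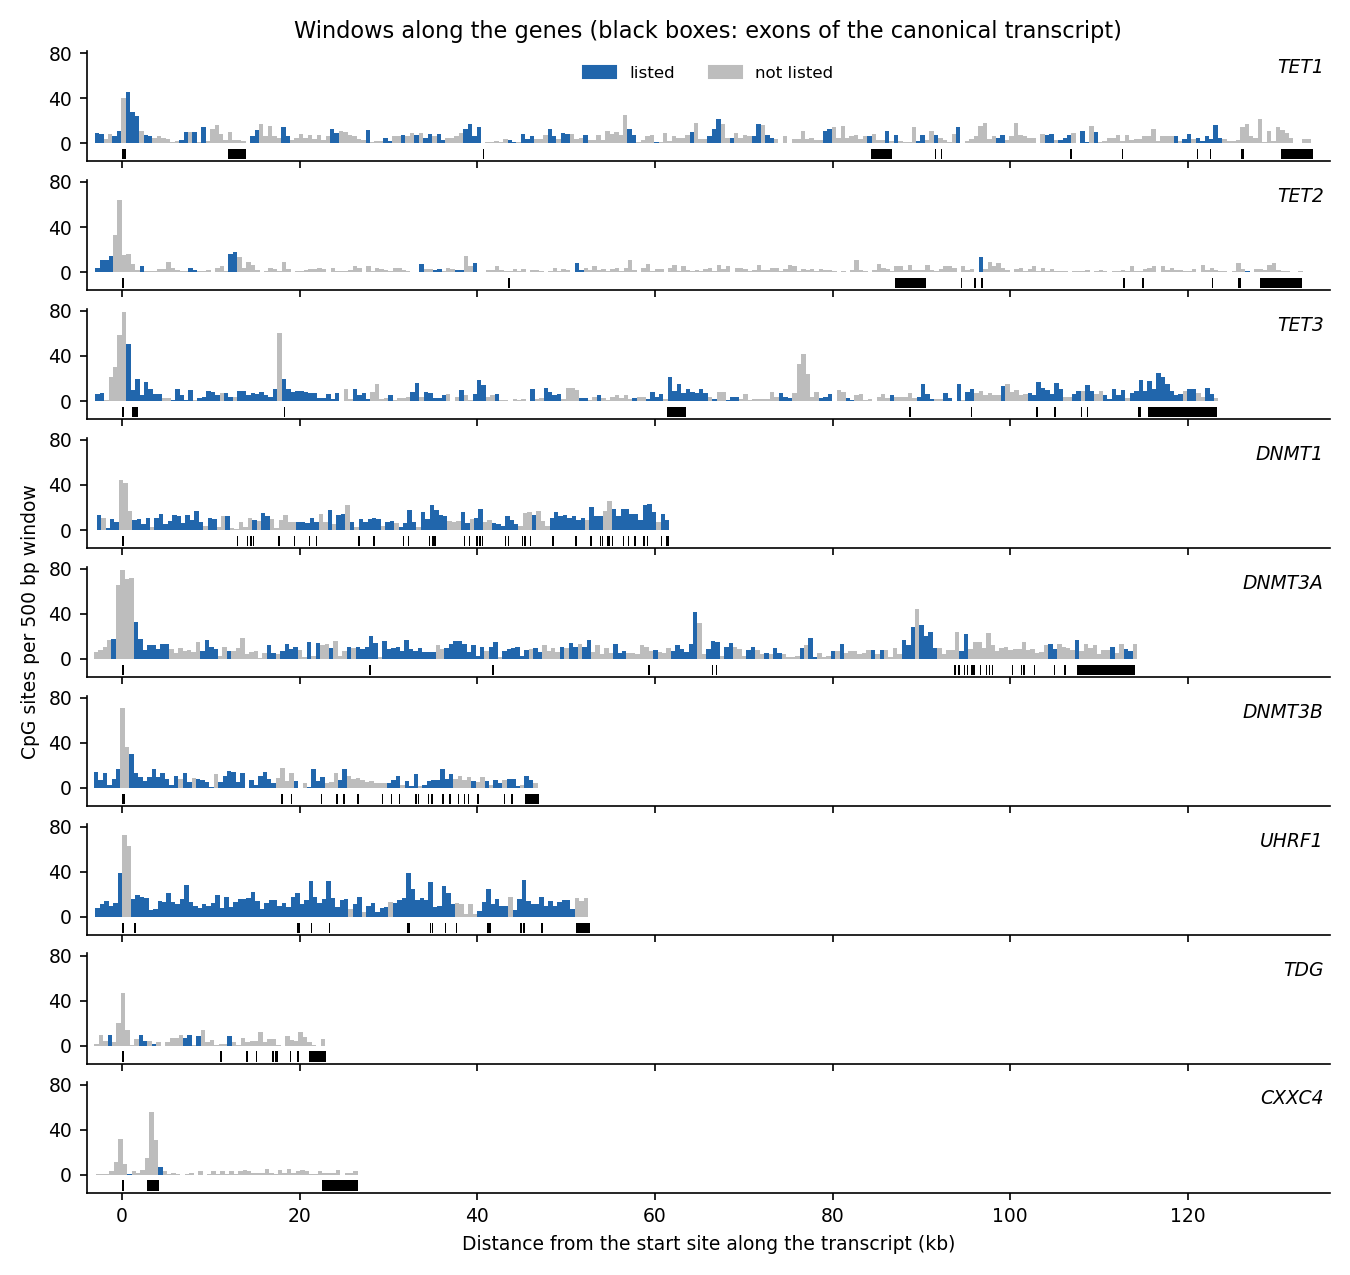
Each panel is a gene drawn along its transcript from 3 kb upstream to its end (x axis, kb from the start site), with a bar for every 500 bp window whose height is its number of CpG sites, and black boxes for exons. Blue bars are listed and grey bars are not: UHRF1 is blue over nearly its whole length (97 of 111 windows), TET2 is grey over nearly its whole length (253 of 272 windows), and the start windows are grey in all panels.

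The coding and 3′ ends of the TET genes contrasted with each other. In TET3 the last exon, of 7784 bp, touched 16 windows with 173 CpG sites, and 12 of them were listed. The last exons of TET1 (3680 bp, 8 windows, 36 CpG sites) and TET2 (4756 bp, 10 windows, 24 CpG sites) touched no listed window, and their predicted shares were 15.5% and 9.64% against 38.4% in TET3. In the large internal exons TET3 was again the highest, in listed and in predicted share. Exon 4 of TET3 (2134 bp) had 5 of 6 windows listed where 52.3% was predicted. Exon 4 of TET1 (2308 bp) had 2 of 6, exon 2 of TET1 (2036 bp) had 0 of 6 and exon 3 of TET2 (3455 bp) had 0 of 8, where 16.7%, 16.1% and 15.3% were predicted. In all 3 genes the catalytic part of the enzyme is encoded towards the 3′ end.

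DNMT3A differed along its length in its listed share more than in its predicted share. Its 3 equal parts had 43 of 76, 41 of 76 and 22 of 77 windows listed from 5′ to 3′, while the predicted shares were 43.8%, 42.6% and 42.4%. The mean CpG number per window was 12.5, 9.28 and 10.7. The longest unlisted stretch, 18 windows from chr2:25460501-25469500, runs from the edge of exon 10, which also touches a listed window, to exon 20, and had a predicted share of 50.3%. The catalytic domain of DNMT3A is encoded in the 3′ portion of the gene. Of the 50-base sequences in this stretch, 98.2% occur once in the genome by exact match, a looser rule than mapping that allows mismatches. In the other methyltransferase genes the 3′ part did not have the lowest share. DNMT1 had 23, 28 and 30 of 41 windows listed in its 3 parts, and DNMT3B had 27 of 32, 13 of 31 and 19 of 31. Against the prediction, however, DNMT1 was lowest in its 3′ part, with ratios of 1.64, 1.77 and 1.49. The ratios were 2.36, 1.16 and 1.83 in DNMT3B and 1.29, 1.27 and 0.675 in DNMT3A. In DNMT1, 30 of 41 exons touched a listed window, against 9 of 23 in DNMT3A and 12 of 23 in DNMT3B. Exons that lie in the same window, such as 15 and 16 of DNMT1, each count. No share over the exons of all genes was taken, so these counts are descriptions.

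The 2 small genes were poor in listed windows in their coding parts. None of the 10 exons of TDG touched a listed window. The predicted shares of their windows ran from 1.32% at exon 7 to 37.0% at exon 1. The last 21 windows of the gene, 10.5 kb from exon 3 to exon 10, were all left out. In that stretch 15.2% was predicted and a window had 4.67 CpG sites on average. Of the 50-base sequences there, 83.7% occur once in the genome, and the part of this in the listing was not tested. CXXC4 has a second CpG-dense block in exon 2, with windows of 56 and 31 CpG sites, and neither was listed. Its 2 listed windows had 1 and 7 sites, and the second touches the end of exon 2.

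Across all members the listed windows had a median of 10 CpG sites and 50.0% GC, and the unlisted windows 4 sites and 41.4% GC. The share listed rose from 10.6% of windows with 0 to 2 CpG sites to 73.5% of those with 20 to 29, each above the share of autosomal windows of the same class, which were 4.97% and 50.6%. It then fell to 14.3% in the class of 40 or more, 3 of 21 windows, where 29.5% of autosomal windows were listed. The pooled shares do not hold for each gene. In the class of 6 to 9 sites TET2 had 13.6% and TDG 25% listed, below the 30.3% of autosomal windows, and the other members lay above. In the class of 30 to 39 sites 9 of 16 were listed, or 56.3%, against 42.1% of autosomal windows. UHRF1 had 6 of the 9, and without it 3 of 10 were listed, below that of the autosomes. All 6 of its windows in this class were listed, while its 2 windows of 40 or more, at the start site, were not. Of the 37 member windows with 30 or more CpG sites 12 were listed, or 32.4%, near the 35.2% of all such autosomal windows. They were 6 of 8 in UHRF1, 3 of 9 in DNMT3A, 1 of 7 in TET3, 1 of 2 in TET1 and 1 of 3 in DNMT3B. TET2, DNMT1, TDG and CXXC4 had none listed of 2, 2, 1 and 3. Of the 50-base sequences, 94.6% in listed windows and 94.8% in unlisted windows occur once in the genome. The shares were less alike in UHRF1, with 89.7% in listed and 77.7% in unlisted windows, and in TDG, with 96.6% and 88.9%. The share was under 50% in 0 listed and 13 unlisted windows, among them a pair of dense windows in TET3, chr2:74288001-74289000, with 31.8% and 30.6%.

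By the position of the window midpoint, introns held 88.9% of the listed windows of the 9 genes and 88.1% of all their windows. A window counted as intron may still hold an exon, since DNMT1 has 41 exons but 6 coding exon windows. The intron and exon shares below are thus not cleanly separated. Of the intron windows 538 of 1308 were listed, or 41.1% where 27.4% was predicted. Of the coding exon windows 24 of 63 were listed, or 38.1% where 38.0% was predicted. The 3′ untranslated windows were listed in 14 of 54 cases, or 25.9% where 22.4% was predicted, and 8 of the 14 were in TET3. Coding exon windows were listed in 11 of 12 cases in TET3, where 62.1% was predicted, and in 6 of 7 in UHRF1, where 56.4% was. They were listed in 1 of 14 cases in TET1 and 1 of 12 in TET2, where 20.3% and 19.4% were predicted. DNMT1 had 2 of 6 listed, DNMT3B 2 of 5, DNMT3A 1 of 2, TDG 0 of 3 and CXXC4 0 of 2.

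The 28 other genes of DNA methylation, demethylation and CpG binding gave a setting for these values. Among the 23 with 20 or more windows the ratio was above 1 in 14, with a median of 1.26, beside 6 of 9 and 1.35 for the members, and the median share was 29.2% beside 45.5%. UHRF2, the paralog of UHRF1, had the highest ratio at 4.39, with 131 of 194 windows listed. KDM2A, a histone demethylase with a CpG-binding finger, followed at 3.32 with 225 of 284. MBD2, which binds methylated CpG, had the lowest at 0.396 with 9 of 152, and KMT2A, a histone methyltransferase, was next at 0.545 with 19 of 187. Over all windows of its chromosome the ratio was 1.12 for UHRF2, 0.980 for KDM2A and KMT2A, and 0.572 for MBD2. A start window was listed in 4 of the 28 genes, beside 0 of the 9 members and 26.7% of all protein-coding genes. The 4 genes were DNMT3L, NEIL1, KDM2B and CXXC5, named after their values were seen, with 19, 20, 20 and 52 CpG sites.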

How the data were processed

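Genomic DNA of FaDu cells was enriched for modified cytosine and sequenced, with 1 library per condition and no replicates. The authors mapped reads to hg19 with Bowtie 0.12.7, removed duplicate and multiply mapped reads and worked with the package MEDIPS among others. The deposited table holds the start and end of each window and 4 columns of values. Since these 4 columns match no sample label, they were not used, and depth per library was not analysed. The criterion for listing a window was not tested, although the table is named for a minimum.

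Windows of 500 bp were laid on GRCh37, and CpG sites, GC bases and 50-base sequences that occur once were counted in Numba 0.67.0 and NumPy 2.4.6 under Python 3.11.15, with pandas 2.3.3 for tables, Matplotlib 3.10.9 for figures and SciPy 1.17.1 for intervals. A 50-base sequence was taken to occur once by exact match over both strands, while the mapping of the authors allowed mismatches. Canonical transcripts were from GENCODE version 44 lifted to GRCh37. The predicted share was that among autosomal windows with the same CpG number (40 or more as 1 class) and GC content in steps of 25 bases. Classes under 50 windows used CpG number alone. The script was tested on simulated lists. Sequences came from the GRCh37 genome, and primers, inserts and the hairpin target were found by exact match.

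The members, the comparison genes and the measures were chosen with earlier results of these data known. All 9 members are named, and of the comparison genes the 2 with the highest and the 2 with the lowest ratio among those with 20 or more windows. Another 4 comparison genes were named after their values were seen. No test was made, so all values are descriptions. Alternatives for the assignment of windows, the region, the transcript, the start site and the prediction were tried.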

Additional observations from a re-analysis of the deposited data

How the results depend on the processing

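The count of 605 listed windows ranged from 590 to 658, and the share from 40.5% to 41.8%, with assignment by any overlap, a shorter or a longer upstream region, or the whole annotated gene. With the whole gene DNMT1 had 129 listed windows in place of 85. With the 5′ end of the annotated gene as the start, 28 upstream and 0 start windows were listed, the same totals, but UHRF1 had 5 of 6 upstream windows listed in place of 6 and TET2 had 5 in place of 4. The ratio of 1.46 over all members was 1.55 with CpG number alone, 1.86 with CpG number alone on each gene's own chromosome, 2.32 with no composition and 1.29 with genic windows. It changed side of 1 in 2 genes, TET2 (0.758, 0.578 with CpG number alone and 1.21 with CpG number alone on its own chromosome) and DNMT3A (1.06, and 0.956 with genic windows). These shifts follow from the windows that set the prediction. Without UHRF1, an alternative chosen after seeing the data, the share was 37.0% and that of windows with 30 to 39 CpG sites 30%, and in the 1189 windows with 90% or more unique sequence, also chosen after seeing the data, it was 38.9%. No paired analysis was possible because the groups share fewer than 2 replicate numbers. Leaving out each library in turn was not run, since no column is tied to a library. Depth limits every statement on unlisted windows, which may have had reads.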
